A study of Rattus norvegicus with 10 samples.

Results

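Feedback genes of the ERK pathway were followed in injured rat heart, with and without BT2, a small molecule for which the labels give no more than this code name. They were taken by name as 10 genes and found by symbol in each table: the phosphatases Dusp4, Dusp5 and Dusp6, the Sprouty genes Spry1, Spry2 and Spry4, the Spred genes Spred1 and Spred2, and the induced transcripts Epha2 and Phlda1. All 10 were present among the 31580 genes of the tissue table and among the 39537 features of the nuclear matrices, and all 10 passed the filter on low counts, which left 15216 tissue genes for testing. The rule names them by function and uses no measured value, but the genes were chosen with earlier results of these data known. Their counts and medians beside those of all genes are therefore descriptions. Tissue was the area at risk, the myocardium downstream of the tied left coronary artery, from rats given vehicle or BT2. It was collected at 4 h or 24 h, with 2 RNA-seq libraries in each of these 4 groups, and nuclei from the same region at 24 h gave 1 library for vehicle and 1 for BT2 at 100 mg/kg. No label used here states the dose behind the tissue libraries or the strain, age and sex of the rats. The titles date the hours from the ligation, and the series text from the myocardial ischaemia and reperfusion injury. All groups carried the injury, and heart without it was not analysed here. Whether the 2 libraries of each group represent different rats is nowhere stated, so p-values measure the spread between these libraries, which may be technical.

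In the ERK pathway, growth factors bind receptor tyrosine kinases, which load RAS with GTP, and RAS starts a relay of the kinases RAF, MEK and ERK. Active ERK, with its downstream kinases, phosphorylates transcription factors of the ETS, AP-1 and CREB families, and within the hour these raise the transcripts of proteins that shut the pathway down. Dual-specificity phosphatases (DUSP) remove the phosphates from ERK itself, Sprouty proteins act between the receptor and RAF, and Spred proteins bring the RAS inactivator neurofibromin to the membrane. Because their transcripts follow the activity of the pathway, several of these genes, with Epha2, Phlda1, Ccnd1, Epha4, Etv4 and Etv5, are used as a transcript readout of ERK activity in tumours. In the heart the pathway is known for its part in cardiomyocyte growth and survival and in the proliferation of fibroblasts and vascular cells.

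ERK-regulated factors are known to act through short promoter sequences, and the promoters of the feedback genes are shown here as sequence. Any part of their sites in the changes with BT2 was not tested. Promoter sequence from RefSeq (build GRCr8, not the Rnor_6.0 of the counts), 250 bases before to 50 bases after each start, was found for 9 of the 10 genes, with 2 starts for Spry2, and Dusp4 was not matched. Each was searched on both strands for the CRE half-site TGACG, the full CRE TGACGTCA (which holds the half-site on both strands) and the AP-1 site TGANTCA. Also searched for were the ETS site CCGGAA, the GC box GGGCGG, the TATA box TATAAA and, by name, the CArG box bound by serum response factor. The shorter ETS core GGAA was not searched for. The 250 bases before the start are given below, 5′ to 3′ along the gene's strand. Epha2 and Dusp5 are examples of the CRE and the CArG box, and Phlda1 and Spry2 of the ETS site CCGGAA. Dusp6 was lower at 4 h and held none of the sites searched for. Capitals mark matches other than the GC box.
Epha2, chr5:158888379-158888628, plus strand: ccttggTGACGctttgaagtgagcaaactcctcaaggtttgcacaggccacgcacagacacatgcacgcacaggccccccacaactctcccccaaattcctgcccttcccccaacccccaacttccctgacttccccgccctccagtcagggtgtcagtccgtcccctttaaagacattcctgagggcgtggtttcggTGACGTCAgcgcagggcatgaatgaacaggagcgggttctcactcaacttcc
Dusp5, chr1:262543524-262543773, plus strand: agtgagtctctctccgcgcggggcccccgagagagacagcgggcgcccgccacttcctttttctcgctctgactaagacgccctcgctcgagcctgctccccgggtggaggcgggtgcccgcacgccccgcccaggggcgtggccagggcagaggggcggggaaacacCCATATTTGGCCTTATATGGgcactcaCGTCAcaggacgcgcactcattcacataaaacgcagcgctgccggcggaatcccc
Phlda1, chr7:48853440-48853689, plus strand: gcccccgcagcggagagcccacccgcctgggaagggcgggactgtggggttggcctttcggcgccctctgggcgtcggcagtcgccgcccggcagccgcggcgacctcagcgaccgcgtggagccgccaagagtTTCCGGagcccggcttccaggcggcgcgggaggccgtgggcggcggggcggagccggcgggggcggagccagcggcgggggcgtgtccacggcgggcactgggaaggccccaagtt
Spry2, upstream start, chr15:89111927-89112176, minus strand: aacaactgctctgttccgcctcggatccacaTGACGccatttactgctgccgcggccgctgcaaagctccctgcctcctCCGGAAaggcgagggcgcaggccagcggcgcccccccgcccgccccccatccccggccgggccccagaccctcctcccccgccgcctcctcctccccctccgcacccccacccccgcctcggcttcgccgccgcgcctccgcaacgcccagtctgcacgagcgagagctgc
Dusp6, chr7:35979354-35979603, plus strand: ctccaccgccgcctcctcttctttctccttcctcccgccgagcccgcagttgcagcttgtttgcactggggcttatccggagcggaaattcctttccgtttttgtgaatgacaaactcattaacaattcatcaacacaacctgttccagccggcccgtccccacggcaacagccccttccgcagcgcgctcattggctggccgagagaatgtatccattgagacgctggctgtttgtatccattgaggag

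The Epha2 promoter held the full CRE with its first base at position -52 from the start, a match found in 1.83% of all 33469 promoters in the table. Dusp5 held 2 CArG boxes side by side, at -82 and -72, where 1.64% of all promoters held at least 1, and a CRE half-site at -55. The ETS site CCGGAA was present in 4 of the 10 promoter entries: at -116 in Phlda1, at -171 at the upstream Spry2 start, at -81 in Spry4 and just after the start, at position 5, in Dusp5. Among all promoters 15% held this site. The CRE half-site was also present in 4 entries (Dusp5, Spred2, Epha2 and the upstream start of Spry2), against 21.2% of all. GC boxes stood in 8 of 10 entries, with 5 in Phlda1, against 33.1% of all promoters, and the GC content of the entries, 56% to 77%, lay above the median of all promoters, 51.7%. No entry held the AP-1 site or the TATA box, which were present in 7.33% and 14.2% of all. Dusp6, Spry1, Spred1 and the downstream Spry2 start held none of the sites apart from the GC boxes of Spry1 and Spred1, which says only that these letters do not occur in this window.

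The tissue libraries held 10397310 to 24480984 counts, and the log2 CPM of replicate libraries correlated across genes at r = 0.981 to 0.990. Defining cardiomyocyte markers were abundant in every library, as the label heart implies. Levels are given as CPM (library-size-normalised counts) scaled by TMM factors, and a gene was called changed at an edgeR quasi-likelihood adjusted p under 0.05 (Benjamini-Hochberg over all 15216 genes). Fold changes are log2 values with their standard error (SE), from 2 libraries per group.

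At 4 h, BT2 lowered the transcripts of 6 of the 10 feedback genes, and none was higher (by edgeR, by DESeq2, or at an unadjusted p under 0.05). Phlda1, Epha2, Spry2, Dusp6 and Spry4 fell to between 0.319 and 0.397 of their vehicle level, and Spred1 to 0.610. Dusp4, Dusp5, Spry1 and Spred2 did not pass the test. Over all genes tested 16.4% were called in this comparison, 9.73% as lower and 6.67% as higher. The median log2 fold change of the 10 genes was -1.02, beside 0.00335 for all genes, and both BT2 libraries lay below both vehicle libraries for 7 of them, an ordering that 30.1% of all genes showed. Both lay above for 1, Spry1, an ordering of 29.2% of all genes.

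**Figure D1:**
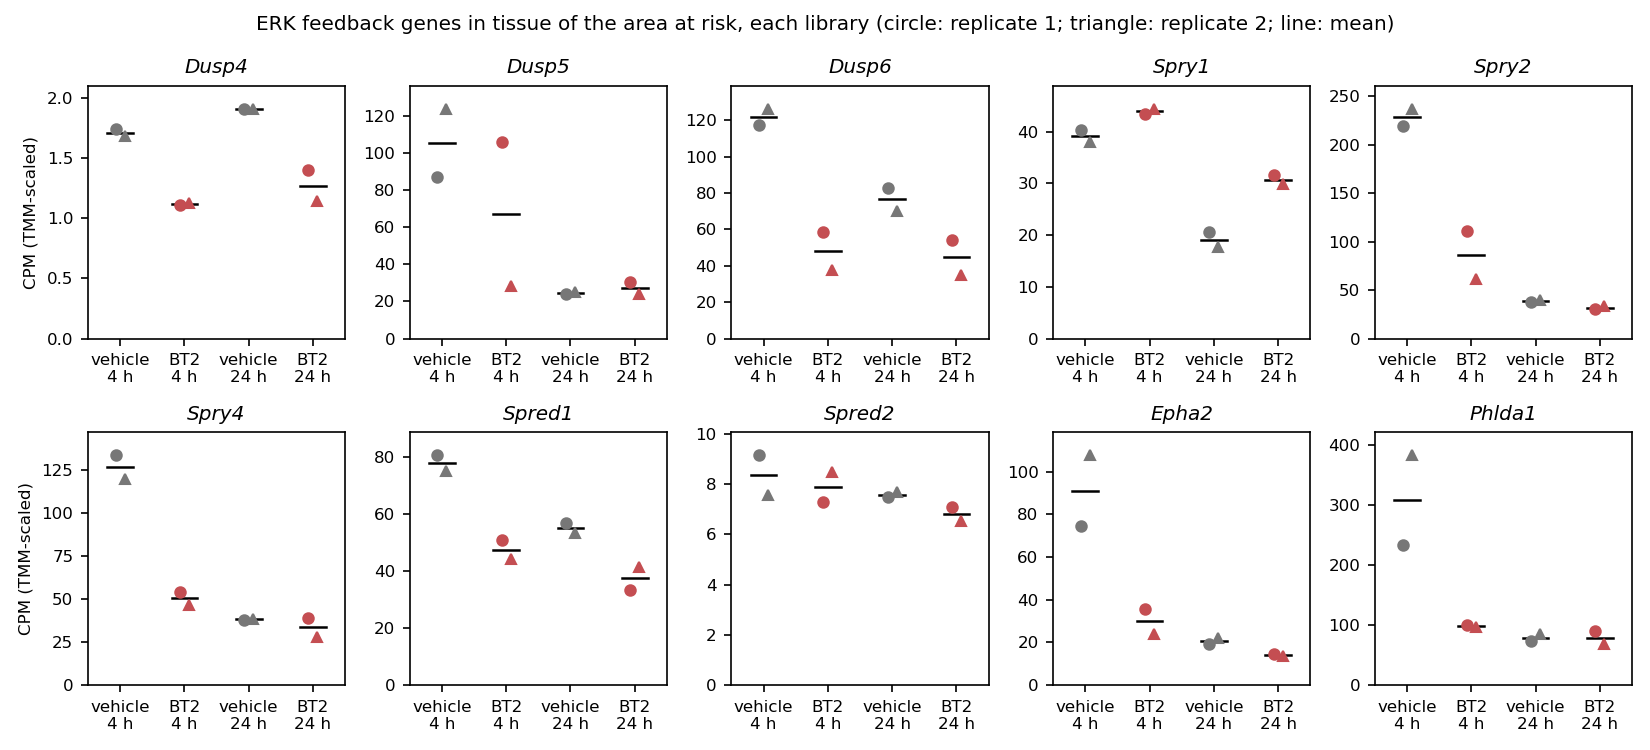
Level of each feedback gene in every tissue library, in TMM-scaled CPM on linear axes that start at 0, by treatment and time (grey, vehicle; red, BT2; circle, replicate 1; triangle, replicate 2; bar, group mean). Most panels step down from vehicle at 4 h to BT2 at 4 h, Spry1 stands higher with BT2 at 24 h, and the 2 BT2 libraries of Dusp5 at 4 h lie far apart, at 106 and 28.6 CPM.

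Among the phosphatases, Dusp6, which resides in the cytoplasm and acts almost solely on ERK, stood at 118 and 126 CPM in the vehicle libraries at 4 h and at 58.7 and 37.6 CPM with BT2. The groups did not overlap, and the difference was -1.35 (SE 0.26, edgeR adjusted p = 0.0182). Dusp5, a nuclear phosphatase for ERK, stood at 87.0 and 124 CPM in vehicle and at 106 and 28.6 CPM with BT2. One BT2 library thus lay inside the vehicle range and the other far below it, and the difference of -0.66 (SE 0.54, edgeR adjusted p = 0.438) was within that spread. Dusp4, the other nuclear member, was present at a low level, 1.74 and 1.68 CPM in vehicle and 1.11 and 1.13 CPM with BT2. Its libraries held 14 to 24 counts at 4 h, both BT2 libraries were lower, and the difference of -0.61 (SE 0.32, edgeR adjusted p = 0.220) was not called.

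The Sprouty genes divided. Spry2 stood at 219 and 237 CPM in vehicle at 4 h and at 110.5 and 61.6 CPM with BT2, a difference of -1.41 (SE 0.24, edgeR adjusted p = 0.0135). Spry4 stood at 133 and 119.7 CPM in vehicle and at 54.3 and 46.2 CPM with BT2, a difference of -1.33 (SE 0.16, edgeR adjusted p = 0.00919). In both genes the BT2 libraries lay well below the vehicle libraries, with no overlap. Spry1 stood at 40.3 and 38.0 CPM in vehicle and at 43.5 and 44.4 CPM with BT2, slightly above, and its difference of 0.17 (SE 0.11, edgeR adjusted p = 0.332) was not called.

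Of the Spred genes, Spred1 stood at 80.6 and 75.3 CPM in vehicle and at 50.8 and 44.3 CPM with BT2, without overlap, a difference of -0.71 (SE 0.13, edgeR adjusted p = 0.0145). Spred2 stood at 9.14 and 7.57 CPM in vehicle and at 7.29 and 8.47 CPM with BT2. These values overlapped, and its difference was -0.07 with a 95% interval from -0.49 to 0.35 (edgeR adjusted p = 0.818).

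The other 2 transcripts showed the largest differences of the 10 at 4 h. Epha2 encodes a receptor tyrosine kinase for ephrin-A ligands, and stood at 74.3 and 108 CPM in vehicle and at 35.8 and 24.0 CPM with BT2, a difference of -1.61 (SE 0.22, edgeR adjusted p = 0.0109). Phlda1, which encodes a small protein with a pleckstrin homology-like domain, stood at 233 and 383 CPM in vehicle and at 99.8 and 97.0 CPM with BT2, a difference of -1.65 (SE 0.24, edgeR adjusted p = 0.0110). In both genes the groups did not overlap, and the vehicle libraries differed more from each other than in the Sprouty genes.

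Most calls at 4 h depended on the second library of either group. Without the second BT2 library Spry2 alone of the 6 remained called, and without the second vehicle library 3 did (Spry4, Epha2 and Phlda1). Over all genes the called share also fell then, to 0.71% and 1.77%. The 6 log2 fold changes themselves lay between -0.61 (Spred1) and -1.62 (Phlda1) without the second BT2 library. Without the first BT2 library 7 genes were called, Dusp5 being added at -1.89 (edgeR adjusted p = 0.016, in a range of 0.016 to 0.987 over its alternatives), while without the second it stood at 0.01. With every library kept, the call of Dusp6 was lost with no filter on low counts (-1.335) and that of Spry2 when only the 4 libraries compared entered the fit (-1.40).

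Markers of neutrophils moved with this comparison. All 8 of the neutrophil markers were in the table and none was at 0 in all libraries. Their summed level was 597 and 1853 CPM in vehicle at 4 h and 198 and 302 CPM with BT2, and 5 of 8 were called lower. The second vehicle library, with the highest neutrophil sum, had the higher vehicle level of Dusp5, Dusp6, Spry2, Epha2 and Phlda1 and the lower of the other 5 genes. Macrophage markers summed to 704 and 1207 CPM in vehicle and to 491 and 627 CPM with BT2, with 3 of 11 called lower and no gene at 0. The part of these cells in the lower feedback transcripts was not tested. In tissue RNA, fewer cells of a type and less RNA per cell cannot be told apart.

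At 24 h Dusp6 and Spred1 were lower with BT2, Spry1 was higher, and the other 7 genes were not called. The called share over all genes was 39.5% here (20.7% lower, 18.9% higher), above the 3 of 10 among the feedback genes. Their median log2 fold change was -0.23, beside -0.00627 for all genes. Both BT2 libraries lay below both vehicle libraries for 6 of the 10 and above them for 1, orderings that 39.5% and 37.7% of all genes showed.

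Dusp6 stood at 82.9 and 70.3 CPM in vehicle at 24 h and at 54.4 and 35.1 CPM with BT2, a difference of -0.78 (SE 0.25, edgeR adjusted p = 0.0421). Spred1 stood at 57.0 and 53.5 CPM in vehicle and at 33.5 and 41.3 CPM with BT2, a difference of -0.56 (SE 0.13, edgeR adjusted p = 0.00953). In both, each BT2 library lay below each vehicle library, as at 4 h. Both calls were lost when the first vehicle library was left out (-0.66 and -0.52). That of Dusp6 was also lost without the second vehicle library (-0.89), without the second BT2 library (-0.49) and with no filter on low counts, and that of Spred1 without the first BT2 library (-0.43).

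Spry1, the Sprouty gene that had not been called at 4 h, stood at 20.6 and 17.7 CPM in vehicle at 24 h and at 31.7 and 29.8 CPM with BT2. The groups were well apart, and the difference was 0.68 (SE 0.11, edgeR adjusted p = 0.00279), or 1.60-fold. It was the only one of the 10 called higher in either comparison of BT2 with vehicle, and it stayed called in each fit that left out 1 library.

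Spry2, Spry4, Epha2 and Phlda1, lower at 4 h, were not called at 24 h. Spry2 stood at 37.8 and 39.6 CPM in vehicle and at 30.02 and 33.4 CPM with BT2 (-0.29, SE 0.24). Spry4 stood at 37.8 and 38.4 CPM in vehicle and at 39.1 and 28.2 CPM with BT2, which overlapped (-0.18, SE 0.16). Epha2 stood at 19.2 and 21.8 CPM in vehicle and at 14.6 and 13.8 CPM with BT2, lower in both libraries but not called (-0.53, SE 0.23, edgeR adjusted p = 0.0974), except when only the libraries compared entered the fit (-0.51). For Phlda1 the group means were 78.9 CPM in each group, with libraries at 73.2 and 84.6 CPM in vehicle and at 90.2 and 67.7 CPM with BT2, and the 95% interval of its log2 difference ran from -0.54 to 0.54. Dusp4 was at 1.91 CPM in both vehicle libraries and at 1.40 and 1.14 CPM with BT2 (-0.59, SE 0.28, edgeR adjusted p = 0.125), a size close to that at 4 h. Dusp5 (23.8 and 25.1 against 30.7 and 23.9 CPM) and Spred2 (7.50 and 7.66 against 7.10 and 6.52 CPM) were not called either.

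At this time the cell markers of the tissue differed between the groups as well. The 10 cardiomyocyte markers summed to 19920 and 19740 CPM in vehicle and to 42680 and 34800 CPM with BT2, and 10 of 10 were called higher. The 11 macrophage markers summed to 3195 and 3913 CPM in vehicle and to 1143 and 1358 CPM with BT2. Of these 7 were called lower and 1 higher. The 8 pericyte markers, of which 4 were called higher, summed to 779 and 724 CPM in vehicle and to 1070 and 995 CPM with BT2. The fibroblast sum went from 3716 and 3355 to 4743 and 4182 CPM, with 4 of 9 tested markers called higher and 1 lower. No marker of these 4 lists was at 0 in all libraries, and their part in the feedback genes was not tested.

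**Figure D2:**
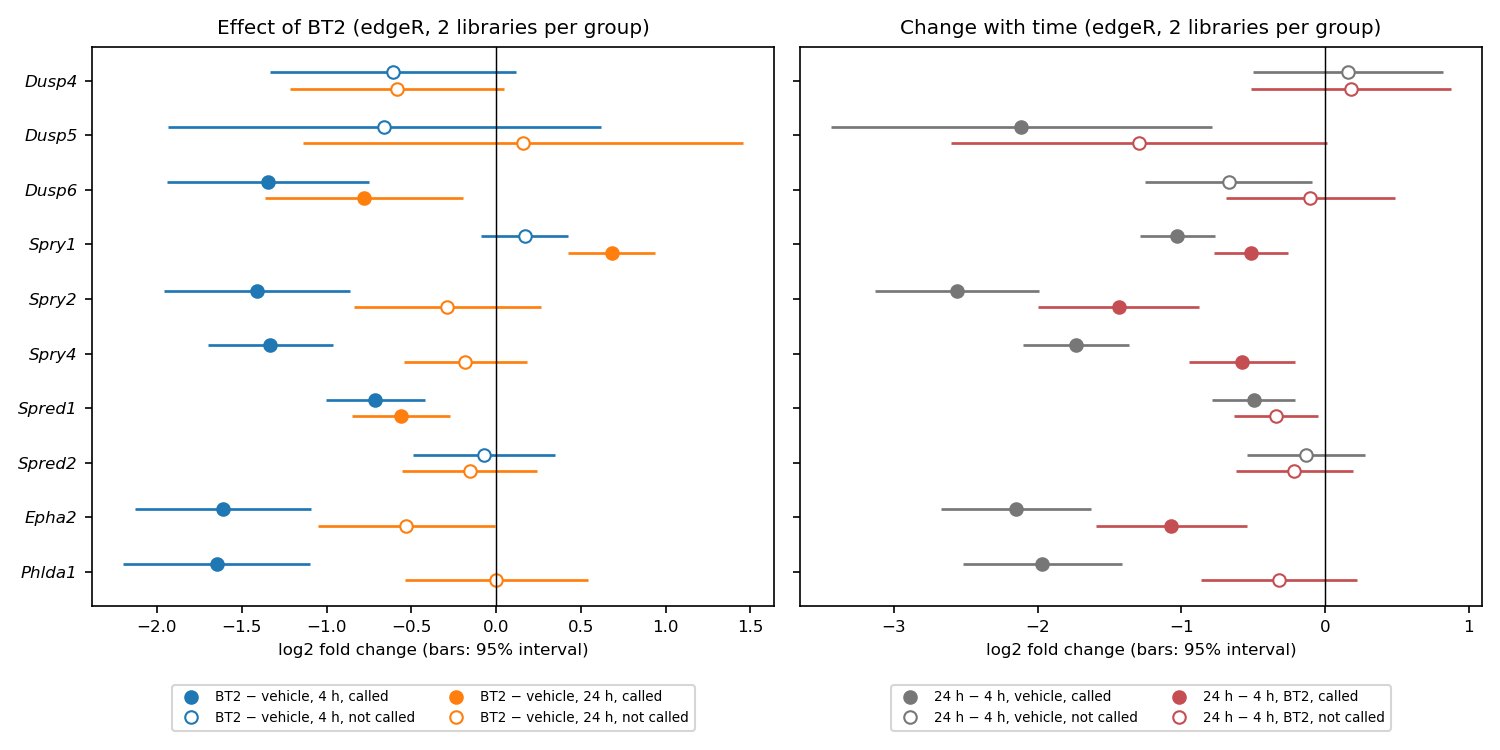
Log2 fold change of each feedback gene with its 95% interval, for BT2 minus vehicle at 4 h and 24 h (left) and for 24 h minus 4 h in vehicle and with BT2 (right); filled points were called by edgeR, open points were not. On the left Spry2, Spry4, Epha2 and Phlda1 are far below 0 at 4 h and closer to it at 24 h, and on the right the fall over time is larger in vehicle than with BT2 for the same genes.

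Whether the effect of BT2 differed between the times was tested directly, as the effect at 24 h minus the effect at 4 h. Phlda1 (1.65, SE 0.33, edgeR adjusted p = 0.0328) and Spry4 (1.15, SE 0.22, edgeR adjusted p = 0.0287) were called as higher, where 7.14% of all genes were called, 4.72% as higher and 2.43% as lower. Spry2 (1.12, adjusted p = 0.0829) and Epha2 (1.08, adjusted p = 0.0783) differed by about as much as Spry4 and were not called. Neither was Spry1 (0.51, adjusted p = 0.0868). For Dusp6 (0.57, 95% interval -0.26 to 1.40) and Spred1 (0.15, 95% interval -0.26 to 0.56), the genes lower at both times, no difference between the effects was detected. Of the 8 fits that left out 1 library, the call of Spry4 was lost in 6, with values from 0.87 to 1.37. That of Phlda1 was lost in 5, without either BT2 library at 4 h, either vehicle library at 24 h or the first BT2 library at 24 h, with values from 1.24 to 1.96. Spry4 lost its call without these same 5 libraries and without the second vehicle library at 4 h. With no filter on low counts Phlda1 was not called (1.63), and DESeq2 also called Spry2 (1.096) and Epha2 (1.05).

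Seen over time, vehicle tissue carried the higher feedback transcripts at 4 h. From 4 h to 24 h in vehicle 7 of the 10 genes fell and none rose (nor did any by DESeq2 or at an unadjusted p under 0.05), where 47.1% of all genes were called, 23.8% as lower and 23.3% as higher. Both 24 h libraries lay below both 4 h libraries for 8 of the 10, as for 37.7% of all genes, and above them for 1, as for 38.4%. The falls were largest in Spry2 (-2.56, SE 0.25, edgeR adjusted p = 0.000227), Epha2 (-2.15, SE 0.23, edgeR adjusted p = 0.000273) and Dusp5 (-2.11, SE 0.56, edgeR adjusted p = 0.0198). Phlda1 fell by 1.97, Spry4 by 1.73, Spry1 by 1.03 and Spred1 by 0.50 on the log2 scale, with edgeR adjusted p from 0.000161 to 0.0127. Dusp6 (-0.67, edgeR adjusted p = 0.0587), Dusp4 (0.16) and Spred2 (-0.13) were not called. The call of Dusp5 was lost without either vehicle library of either time (-1.83 to -2.34), and with no filter on low counts (-2.08), and that of Spred1 without the first library at 4 h or the second at 24 h. Dusp6 was called by DESeq2 (-0.67), when only the libraries compared entered the fit (-0.65) and with a replicate block (-0.69).

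Cell markers moved over time in vehicle too, and no marker of the 3 lists given here was at 0 in all libraries. Of the 10 cardiomyocyte markers 9 were called lower at 24 h, and their sum went from 63480 and 76220 to 19920 and 19740 CPM. Of the 11 macrophage markers 9 were called higher, from 704 and 1207 to 3195 and 3913 CPM. Of the 8 neutrophil markers 7 were called lower, from 597 and 1853 to 312 and 208 CPM. Their part in the falls of the feedback genes was not tested.

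With BT2, 4 genes fell between the times: Spry2 by 1.44, Epha2 by 1.07, Spry4 by 0.58 and Spry1 by 0.52 on the log2 scale (edgeR adjusted p from 0.00815 to 0.0350). Over all genes 23.3% were called in this comparison, 11.6% as lower and 11.7% as higher. Both 24 h libraries lay below both 4 h libraries for 7 of the 10 and above them for 1, as for 32.5% and 35.2% of all genes. Phlda1 differed by -0.32 (SE 0.23) and Dusp6 by -0.10 (SE 0.25), neither of them called. The comparisons over time share their libraries with those of BT2 against vehicle, so they are not separate evidence. Of the 10 genes, 1 was called without the first BT2 library at 4 h or the second at 24 h, 2 without the first at 24 h, and 3 without the second at 4 h, when Dusp5 was called at -1.96. The call of Spry4 was also lost with upper quartile factors (-0.49) and when only the libraries compared entered the fit (-0.58). Of the same marker lists, 6 of 10 cardiomyocyte markers were called lower (sums of 72330 and 70320, then 42680 and 34800 CPM), 8 of 11 macrophage markers higher (491 and 627, then 1143 and 1358 CPM) and 2 of 8 neutrophil markers lower (198 and 302, then 101 and 171 CPM), and their part was not tested here either.

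The order of the group means shows 3 kinds of profile. Spry2, Spry4 and Epha2 ran from vehicle at 4 h over BT2 at 4 h to vehicle and then BT2 at 24 h, with the highest mean 7.20 times the lowest for Spry2, 6.40 times for Epha2 and 3.76 times for Spry4. All neighbouring groups were apart in Spry2 and Epha2, while the 2 groups at 24 h overlapped in Spry4. Phlda1 (3.90 times) differed only in that the overlapping groups at 24 h were exchanged. Dusp6 and Spred1 ran instead from vehicle at 4 h over vehicle at 24 h to BT2 at 4 h and at 24 h, so that treatment ordered them more than time, with BT2 at both times overlapping in Dusp6. In Spry1 both 4 h groups stood above both 24 h groups and BT2 stood above vehicle within each time, a profile no other member had. Dusp4 was ordered by treatment with little difference between times, Spred2 varied 1.23 times in all, and Dusp5 overlapped between all neighbouring groups.

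Likeness was measured as the root mean square difference of centred log2 CPM over the 8 libraries, where 0 would be an identical profile. Among the members the closest pairs were Spry4 with Phlda1 (0.257) and Spry2 with Epha2 (0.259), and the farthest was Dusp4 with Spry2 (1.14). Among 10392 other genes with a symbol and a mean of at least 5 CPM, the nearest to Spry4 was Ier2 (0.110), an immediate early gene, followed by Klf6 (0.179) and Nav2 (0.189). Dusp6 was nearest to the kinase gene Nuak2 (0.142), to Rras2 (0.178), a RAS family member, and to the early transcription factor Egr2 (0.199). Epha2 was nearest to Ier5 (0.148), Samd4a (0.167) and R3hcc1l (0.184), and Phlda1 to Nfil3 (0.174), Tmem154 (0.192) and Fam65b (0.221). These are descriptions over libraries that share their groups.

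Upstream and beside the feedback genes, the same fit gave the other genes of the pathway from fixed lists. Their counts stand against the shares over all genes, 9.73% lower and 6.67% higher at 4 h and 20.7% lower and 18.9% higher at 24 h. Growth factor ligands were lower at 4 h in 5 of 14 tested cases and higher in 1, with a median of -0.59. The largest difference was that of Hbegf, a ligand of the EGF receptor, which went from 198 ± 70.5 CPM (SD, n = 2) to 30.9 ± 8.95 CPM with BT2 (-2.68, SE 0.27, edgeR adjusted p = 0.00919). Areg, another EGF receptor ligand, was called at -2.46 and Pdgfa at -0.99. Hbegf was also lower at 24 h (33.9 to 7.70 CPM, -2.14), when Igf1 (0.89) and Fgf9 (1.42) were among 4 ligands called higher and 2 were called lower. Ereg and Egf did not pass the filter.

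Receptors, adaptors and kinases of the relay were called in both directions. At 24 h 5 of 13 receptors, 5 of 12 adaptors and RAS genes and 7 of 14 kinases were called, beside 39.5% of all genes. At 4 h 2 of 13 receptor tyrosine kinases were lower (Met at -1.34, Fgfr1 at -0.51) and Fgfr3 was higher (1.06), with a median of -0.20. At 24 h 3 were lower, with Met at -1.59 and Erbb3 at -1.21, and 2 higher, with Erbb4 at 1.44. The 12 adaptors, RAS genes and RAS inactivators counted 2 higher and 2 lower at 4 h, among them Gab1 (0.64), Nf1 (0.52), which encodes the partner of Spred proteins, and Grb2 (-0.46). At 24 h 2 were higher and 3 lower, with Nras at -0.83 and Shc1 at -0.72. Of the 14 kinases of the RAF, MEK and ERK relay 2 were higher and 3 lower at 4 h, and 3 higher and 4 lower at 24 h. Map2k1, which encodes MEK1, was lower at both times (-0.42 and -0.63), and Rps6ka5, a kinase downstream of ERK, was higher at both (0.56 and 0.86). The medians of the adaptor and kinase lists lay between -0.11 and 0.13 in both comparisons. Of the 7 ephrin-A ligands and EphA receptors tested, edgeR called 0 at 4 h, where 3 had an unadjusted p under 0.05 and DESeq2 called 1. At 24 h 3 of the 7 were called, Epha4 and Epha7 higher (0.95 and 0.87) and Efna2 lower (-1.24).

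The remaining inhibitors were lower or not called at 4 h. Of 9 other MAP kinase phosphatases 4 were lower at 4 h and 0 higher by edgeR, with the same counts by DESeq2 and 1 higher at an unadjusted p under 0.05. Dusp10, which acts on p38 and JNK, went from 44.3 ± 12.2 CPM (SD, n = 2) to 11.02 ± 5.05 CPM (-2.03, SE 0.33, edgeR adjusted p = 0.0127), and Dusp8 (-0.92) and Dusp16 (-0.74) were lower too. The other, Dusp9, was sparse, at 0.335 CPM in vehicle and with no count in either BT2 library. At 24 h Dusp10 (-1.05) and Dusp9 (0.564 to 0.0860 CPM) were lower. Spred3, the third Spred gene, stood at 41.0 CPM in vehicle and 19.4 CPM with BT2 at 4 h (-1.09, edgeR adjusted p = 0.0658) and was called at 24 h, where it stood at 41.1 and 12.8 CPM (-1.68, SE 0.34, edgeR adjusted p = 0.00721). Spry3 had no count in any of the 8 libraries. Of the 5 other feedback inhibitors tested edgeR called 0 at 4 h, where 3 had an unadjusted p under 0.05 and DESeq2 called 2. At 24 h Spred3 and Cbl (-0.50) were lower and Lrig1 (0.57) was higher.

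The list of ERK target transcription factors and transcripts holds genes that ERK signalling induces, such as Myc, and the ERK substrates Elk1, Elk3 and Elk4. Of 13 tested, 7 were lower and 1 higher at 4 h (9.73% and 6.67% of all genes), and 8 were lower and 2 higher at 24 h (20.7% and 18.9% of all genes), with medians of -0.62 and -0.67. Elk3 was among those lower at both times (-0.62 and -0.37), and Elk1 was higher at 24 h (0.58). Myc went from 209 to 74.4 CPM at 4 h (-1.49) and from 94.1 to 28.9 CPM at 24 h (-1.70). Ccnd1, which encodes the cell cycle protein cyclin D1, was lower at both times (-1.52 and -1.11). Of the other genes of the tumour readout, Etv4 was called at 24 h alone (-1.51, from 7.58 to 2.64 CPM), Etv5 at neither time (0.55 and -0.24), and Epha4 was higher at 24 h (0.95). The difference between the BT2 effects was called for Epha4 (1.43, edgeR adjusted p = 0.0222) and not for Etv4 (-1.27, adjusted p = 0.123) or Etv5 (-0.79, adjusted p = 0.147).

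Over time in vehicle 23.8% of all genes were called lower and 23.3% higher. Of 9 other phosphatases 5 fell and 0 rose (nor did any by DESeq2 or at an unadjusted p under 0.05), of 14 ligands 7 fell and 1 rose, and of the 13 ERK targets 6 fell and 5 rose, with a median of 0.13 for these. Among the falls were Dusp10 at -2.11, Hbegf at -2.55, Maff at -2.62 and, among other inhibitors, Errfi1 at -2.84. Etv4 and Etv5 rose (1.46 and 0.70), against the direction of the 7 feedback genes. Erbb3, a receptor for neuregulins, rose from 2.88 to 45.4 CPM (4.02). With BT2 from 4 h to 24 h edgeR called 0 of the 9 phosphatases, where 4 had an unadjusted p under 0.05 and DESeq2 called 2. Among the 14 ligands 4 rose and 4 fell, beside 11.7% and 11.6% of all genes.

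In the nuclei at 24 h the feedback genes were compared between 1 library for each treatment, so there is no test. After filtering, 11372 vehicle nuclei (median 2465 UMIs) and 10324 BT2 nuclei (median 2157 UMIs) remained, and 37 barcodes occurred in both libraries. Intervals are exact 95% intervals of the CPM ratio and cover counting error only. Dusp6 was again lower with BT2, 52.7 against 41.05 CPM, a ratio of 0.779 (0.728 to 0.834). Over all nuclei Spry1 was again higher, 20.01 against 27.2 CPM, a ratio of 1.36 (1.24 to 1.495). Its ratios within cell classes, given below, went both ways. Spred1, lower in tissue, stood at 290.5 CPM in both libraries (ratio 1.0, 0.974 to 1.03).

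Spry2, Spry4, Epha2 and Phlda1, which were not called in tissue at 24 h, stood higher in the BT2 nuclei. Spry2 stood at 15.02 and 24.1 CPM (ratio 1.61, 1.45 to 1.78), Spry4 at 26.1 and 38.8 CPM (1.49, 1.37 to 1.61), Phlda1 at 17.6 and 25.02 CPM (1.42, 1.29 to 1.57) and Epha2 at 12.1 and 15.2 CPM (1.25, 1.11 to 1.42). The ratios of Dusp4 (1.103), Dusp5 (1.06) and Spred2 (1.05) had intervals that included 1. Spry2 alone passed 1.5-fold, where 21.4% of 18100 nuclear features with at least 20 UMIs did in either direction, 9.78% as higher and 11.6% as lower. The median ratio of the 10 genes was 1.18, beside 0.974 for all these features. RNA of whole tissue and RNA of nuclei are different measures, and the difference between them was not tested.

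**Figure D3:**
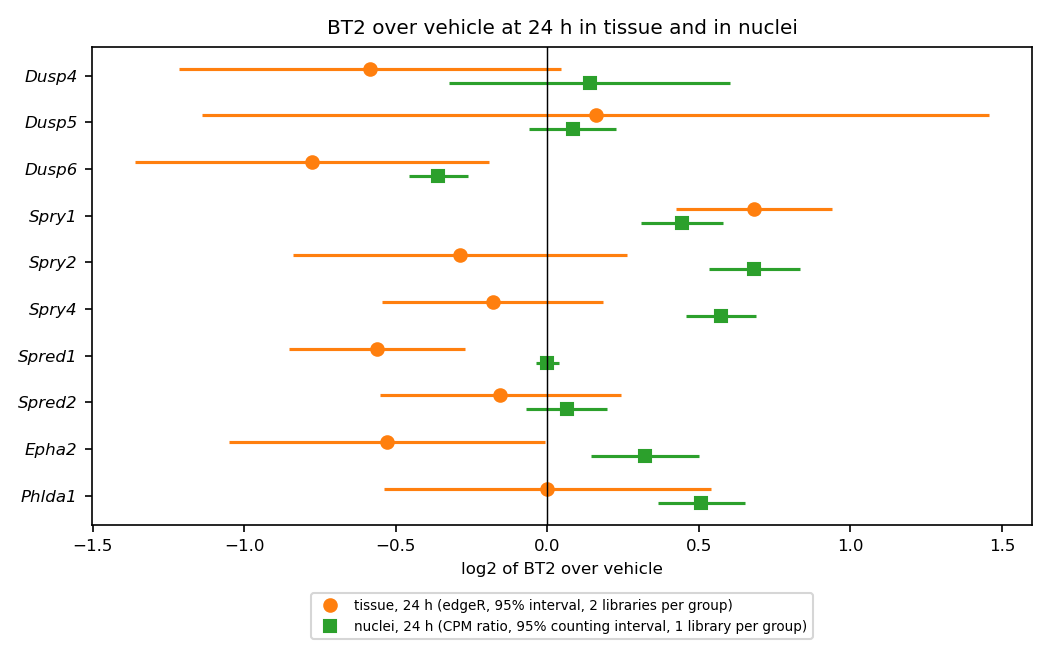
Log2 of BT2 over vehicle at 24 h for each feedback gene, in tissue (orange circles, edgeR with 95% interval, 2 libraries per group) and in nuclei (green squares, ratio of CPM with 95% counting interval, 1 library per group). Dusp6 lies below 0 and Spry1 above 0 in both, while Spry2, Spry4, Epha2 and Phlda1 lie above 0 in nuclei, where the intervals hold no variation between animals.

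The makeup of the 2 nuclear libraries differed. Fibroblast-like nuclei were 13.8% of vehicle and 28.6% of BT2 nuclei, neutrophil-like nuclei 7.57% and 3.07%, and monocyte or macrophage-like nuclei 17.3% and 11.9%. Unnamed clusters held 18.2% and 12.7% of nuclei. Of the UMIs of each feedback gene they held more, 28.3% to 48.4% in vehicle and 7.03% to 27.6% with BT2. One of them, with 242 vehicle and 63 BT2 nuclei, had a median of 14477 UMIs per nucleus and a median doublet score of 0.107. The ratios over all nuclei rest on summed UMIs, so these clusters weigh more in the vehicle library. Classes were named from marker genes, and the 11 classes holding 100 or more nuclei per library were compared. Giving each of these classes the same weight turned the Spry1 ratio to 0.849. It moved Dusp6 to 0.936, outside its counting interval above, and Epha2 to 1.06. Spry2 then stood at 1.48, Spry4 at 1.33 and Phlda1 at 1.63. A cluster led by heat shock genes (Hspa1a, Hsph1, Dnaja1), with 24 vehicle and 135 BT2 nuclei, held Epha2 at 105.5 and 229 CPM (4 and 52 UMIs), and without it the Epha2 ratio was 1.13 (0.998 to 1.29). Another unnamed cluster, with the pericyte genes Rgs5 and Kcnj8 among its leading genes, a high doublet score, and 739 vehicle and 514 BT2 nuclei, held Spry4 at 31.4 and 71.2 CPM, a ratio of 2.27 (1.83 to 2.83). In nuclei of named classes alone the ratio was 1.40 for Spry4, 1.47 for Spry2, 1.43 for Spry1 and 0.844 for Dusp6.

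Each feedback gene had its own distribution over the classes. Spry4 was highest in pericyte-like nuclei, 113 CPM in vehicle and 144 CPM with BT2, followed by smooth muscle-like (56.7 and 53.2 CPM) and endothelial-like nuclei (43.2 and 56.5 CPM). It stood at 0.870 CPM in vehicle monocyte or macrophage-like nuclei, on 4 UMIs. The endothelial-like class held 2 clusters of similar size. That with Dll4 and Gja5, genes of arterial endothelium, and Rbfox3 (1132 vehicle and 736 BT2 nuclei) held Spry4 at 73.4 and 98.5 CPM. That with Selp, a venular gene (1113 and 836 nuclei), held it at 22.6 and 30.1 CPM. In a finer clustering Dll4 and Gja5 were leading genes of a smaller cluster (423 and 331 nuclei), and Rbfox3 and Nox4 of another (823 and 478). The levels in the first cluster are therefore not those of arterial nuclei alone. Epha2 was also highest in pericyte-like nuclei (46.7 and 47.8 CPM) and low in fibroblast-like nuclei (2.35 and 4.25 CPM).

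Spry1 was highest in pericyte-like (58.4 and 54.1 CPM) and fibroblast-like nuclei (43.2 and 51.2 CPM). Within the fibroblast-like class, the cluster with Scara5 and Abca8a held 68.1 and 85.4 CPM and that with Postn and Tnc 35.9 and 37.1 CPM. The makeup of this class differed between the libraries. The Scara5 cluster had 456 vehicle and 1450 BT2 nuclei, and the Postn cluster 1115 and 1503. The Spry1 ratio was 1.19 (1.03 to 1.37) in fibroblast-like and 1.94 (1.24 to 3.07) in cardiomyocyte-like nuclei. It was 0.925 (0.680 to 1.26) in pericyte-like and 0.706 (0.492 to 1.001) in endothelial-like nuclei. In smooth muscle-like nuclei it was 0.417 (0.208 to 0.822, on 22 and 17 UMIs), and in unnamed nuclei 0.714 (0.534 to 0.943). Spry2 was highest in Schwann-like nuclei (47.2 and 74.1 CPM, on 15 and 43 UMIs), then in fibroblast-like (37.5 and 35.9 CPM) and pericyte-like nuclei (36.4 and 51.5 CPM). Spred1 was detected in every class, from 93.2 and 116 CPM in cardiomyocyte-like to 518.5 and 512 CPM in monocyte or macrophage-like nuclei.

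Dusp6 was highest in monocyte or macrophage-like nuclei (71.3 and 73.7 CPM) and, in vehicle, in fibroblast-like nuclei (71.0 CPM, 49.6 CPM with BT2). It was lowest in cardiomyocyte-like nuclei (13.4 and 10.2 CPM). Dusp5 was highest in neutrophil-like nuclei in vehicle (43.1 CPM on 66 UMIs) and in dendritic-like nuclei with BT2 (55.4 CPM on 16 UMIs). Phlda1 was highest in cardiomyocyte-like nuclei in vehicle (31.7 CPM) and in pericyte-like nuclei with BT2 (50.9 CPM). Spred2 was highest in pericyte-like nuclei of both libraries (55.2 and 46.5 CPM), and so was Dusp4 (8.44 and 15.1 CPM, on 13 and 24 UMIs).

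**Figure D4:**
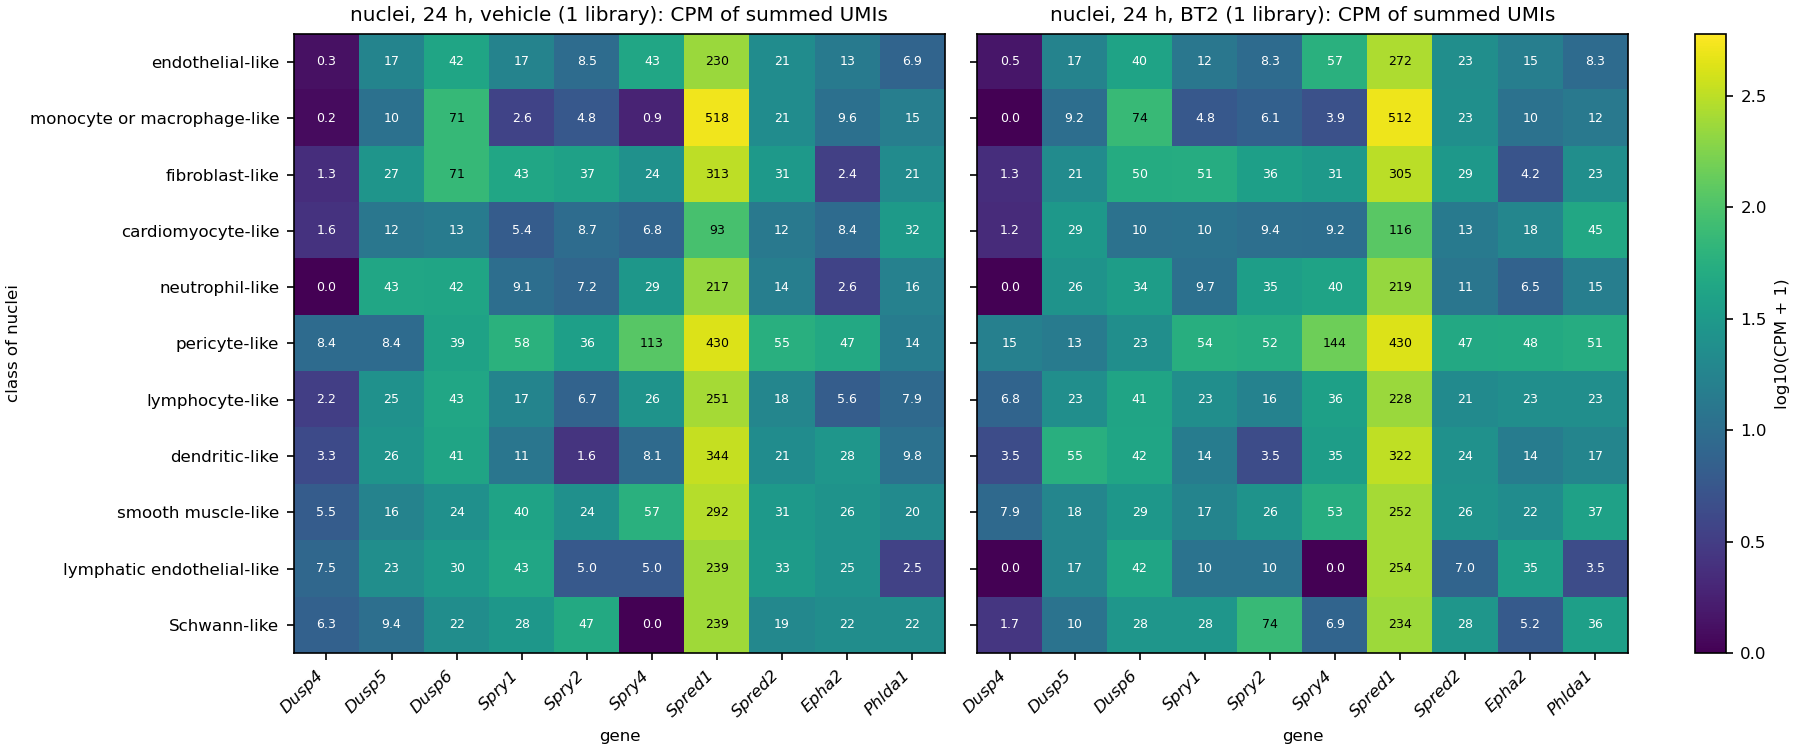
Level of each feedback gene in the 11 compared classes of nuclei at 24 h, as CPM of UMIs summed over the class, for the vehicle (left) and the BT2 library (right), with colour on a log10 scale of CPM + 1. Pericyte-like nuclei hold the highest Spry4 (113 and 144 CPM) and Epha2, and Spred1 is present in every class.

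Within classes, Dusp6 had an interval below 1 in fibroblast-like nuclei (ratio 0.699, 0.617 to 0.792) and pericyte-like nuclei (0.581, 0.373 to 0.893). The fibroblast clusters were both lower, at 0.740 (0.646 to 0.847) in the Postn cluster and 0.656 (0.468 to 0.923) in the Scara5 cluster. In monocyte or macrophage-like nuclei the ratio was 1.03 (0.853 to 1.25). Its cluster with Spp1 and Gpnmb (1580 vehicle and 839 BT2 nuclei) gave 0.849 (0.651 to 1.1). Its cluster with Cd163 (386 and 385 nuclei), where the level was higher (104 and 115 CPM), gave 1.11 (0.825 to 1.49). Of 9 classes with at least 20 Dusp6 UMIs in the higher library, 6 had a ratio below 1, and 2 had an interval below 1. This filter can admit a class through its higher library alone, and the share over all features was not counted. The same limits hold for the Spry4 count that follows.

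Spry4 was above 1 in 6 of 7 such classes, by 1.26 to 1.41-fold, with intervals above 1 in endothelial-like, fibroblast-like and pericyte-like nuclei. The 2 endothelial clusters gave 1.34 (that with Dll4, Gja5 and Rbfox3) and 1.33 (Selp). In fibroblast-like nuclei the Postn cluster gave 1.41 and the Scara5 cluster 0.894 (0.612 to 1.32), and a finer clustering gave 1.02 for the class and 0.827 in cardiomyocyte-like nuclei, where it had been 1.36. Phlda1 in pericyte-like nuclei went from 13.6 to 50.9 CPM, on 21 and 81 UMIs, a ratio of 3.74 (2.29 to 6.36). Spry2 had a ratio of 0.959 (0.816 to 1.127) in fibroblast-like nuclei, which held 37.6% of its UMIs in the vehicle library and 49.8% in the BT2 library, and 1.42 (0.997 to 2.03) in pericyte-like nuclei. The largest of its 8 class ratios, 4.94 (2.297 to 11.3), came from 11 and 22 UMIs in neutrophil-like nuclei. That class met the minimum of 20 UMIs through the BT2 library alone. Neutrophil-like nuclei were fewer in the BT2 library, 317 nuclei against 861.

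In cardiomyocyte-like nuclei Dusp5 went from 11.51 to 29.4 CPM (2.55, 1.92 to 3.42), Epha2 from 8.36 to 18.0 CPM (2.16, 1.52 to 3.08) and Phlda1 from 31.7 to 44.8 CPM (1.41, 1.17 to 1.72). The median depth of these nuclei was 6094 UMIs in vehicle and 3698 UMIs with BT2. The finer clustering gave 2.26, 2.3 and 1.54 for these genes but turned the ratios of Spry1 (1.94 to 0.937) and Spred1 (1.25 to 0.915) in this class. The class then held a cluster with Myh6 and Myom2 (353 vehicle and 517 BT2 nuclei) and one with Xirp2 and Nppa (490 and 290). The part of this makeup in the ratios was not tested. Doublets were not removed, since the caller marked 1 vehicle nucleus and 0 BT2 nuclei.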

How the data were processed

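Per the submitters' processing notes, tissue reads were trimmed with Trim Galore, aligned with STAR to Rnor_6.0 and counted with featureCounts, and nuclei were processed with Cell Ranger (8.0.1 per the file headers). The authors deposited raw counts per gene for tissue and UMI counts per nucleus. Other versions and the strand setting: not given in the sources used here. All 10 genes, the pathway and marker lists and the naming thresholds were chosen with earlier results of these data known. The text names all 10 genes, the up to 3 called genes of smallest p in each list and comparison, the rest of the tumour readout, and the 3 genes most like Spry4, Dusp6, Epha2 and Phlda1. A gene's values in comparisons where this rule did not name it, and the genes named for clusters, were chosen after their values were seen.

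Tissue counts were tested in R 4.3.3 with edgeR 4.0.16 (filterByExpr with a minimum count of 10, TMM, robust quasi-likelihood, 1 mean per group over all 8 libraries, 4 residual degrees of freedom, biological coefficient of variation 14.3%). The fit was also run on counts simulated from its own dispersions, which checks the code and not the calls given here. Alternatives were RLE and upper quartile factors, no filter, only the libraries compared, a replicate block, DESeq2 1.42.0 and each library left out.

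Nuclei with at least 500 UMIs, at least 200 genes and at most 5% mitochondrial UMIs were clustered with scanpy 1.11.5 (Leiden resolution 0.5, without the pathway genes) and named where a marker score of at least 0.9, a lead of 0.5, 3 detected markers and a median doublet score of at most 0.1 were met. Of 23 clusters 8 stayed unnamed. Class ratios were counted where the higher library had at least 20 UMIs. Classes rest on these rebuilt names, and free RNA was not removed.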

Additional observations from a re-analysis of the deposited data

Results flagged for a closer look

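The effect of BT2 on Spry4 and Phlda1 differed between the times by a test of the difference itself. The effect at 24 h minus that at 4 h was 1.15 on the log2 scale for Spry4 (SE 0.22, edgeR adjusted p = 0.0287, 2 libraries per group) and 1.65 for Phlda1 (SE 0.33, edgeR adjusted p = 0.0328). Both genes were lower with BT2 in both libraries at 4 h and overlapped with vehicle at 24 h. Each call was lost in most fits that left out 1 library, and that of Phlda1 also with no filter on low counts. Over all alternatives the values ran from 0.873 to 1.37 for Spry4 and from 1.24 to 1.955 for Phlda1.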

How the results depend on the processing

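No called log2 fold change of the 10 genes turned its sign under any alternative: of each gene's values under the alternatives, 471 kept their side of the threshold, 47 lost a call and 11 gained one. Leaving out 1 library gave 1 to 7 genes called for BT2 at 4 h, 1 to 2 for BT2 at 24 h, 0 to 3 for the difference between the effects, 5 to 6 for vehicle over time and 1 to 3 for BT2 over time, and the remaining library of a group was then assumed to vary like the others. For the difference between the effects 1 gene was called with no filter on low counts and 4 with DESeq2, against 2. The replicate block gave 6 genes called for BT2 at 4 h, 3 at 24 h, 2 for the difference, 8 for vehicle over time (Dusp6 added) and 4 for BT2 over time. Deviations of same-numbered libraries correlated at -0.0464 to 0.0965. With 2 libraries per group this cannot show whether same-numbered libraries shared a batch. The numbers 1 and 2 follow the sample titles, while the deposited column names carry 2 and 3. In nuclei, 2 genes passed 1.5-fold with a TMM factor and 0 in nuclei of named classes alone (chosen after seeing the data), against 1. With compared classes weighted equally (chosen after seeing the data) the nuclear Spry1 ratio turned to 0.849 and that of Dusp6 moved to 0.936. In cardiomyocyte-like nuclei a Leiden resolution of 1.0 turned Spry1 to 0.937 and Spred1 to 0.915. The causes were not tested. The Spry2 ratio in neutrophil-like nuclei, on 11 and 22 UMIs, went from 4.94 to 13.4 at that resolution. Dusp4 held 14 to 55 counts per library, and how far depth bears on its not being called was not tested.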

Other observations

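At the finer clustering Spry2 itself was among the 10 leading genes of an unnamed cluster of 154 vehicle and 238 BT2 nuclei, beside Abcb1b, Has1, Il6 and Inhba. Spry2 had been left out of the genes used for clustering.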
